A study of Bombyx mori with 4 samples.

Results

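Accessible chromatin of the silkworm Bombyx mori was examined for its opposite, the long stretches in which no open region was listed in either tissue. A long gap was a stretch of at least 20000 bp between neighbouring open regions, after the peaks of all 4 ATAC-seq libraries had been merged wherever they overlapped by 1 bp or more. Of the 129534 gaps between the 129562 merged regions on the 28 long sequences, 188 were long gaps, which is 0.145% of the gaps. They held 5.76 Mb, or 1.30% of the 444 Mb between the first and the last region of these sequences. The gaps were chosen by the peak positions of all 4 lists, so number, length and position of the gaps are given as descriptions without a test.

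The libraries were made from brain and fat body of wild-type larvae of strain P50, with 2 libraries per tissue, and the titles name no treatment. Each is called here by its tissue and the number in its title, and all titles give the stage code L5D3. The peak names of brain 1 carry another stage code than its title. Nothing in the labels tells whether a tissue's libraries stem from separate animals, so their spread may be technical. The fat body is the organ in which insects store lipid and glycogen and from which most haemolymph proteins are secreted. Tissue markers could not be checked, because a peak list holds no gene names.

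ATAC-seq marks DNA that a transposase can reach, mostly promoters and enhancers freed of nucleosomes. DNA packed as heterochromatin, often rich in transposons and poor in genes, is cut rarely and gives few peaks. A stretch can also lack peaks because its sequence is repeated or missing in the assembly, so that short reads are not placed there with confidence. Silkworm chromosomes are holocentric, so that no single large block of centromeric heterochromatin stands out along them. A peak list alone does not separate packed DNA from DNA in which reads could not be placed. No genome of this build was used here, so the gaps are given by coordinates, 1-based and in the numbering of the deposited lists, and without genes or sequence.

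The lists differed in length. On all sequences fat body 1 had 107057 peaks, brain 1 had 36420, fat body 2 had 14752 and brain 2 had 11572. The number of reads per library is unknown, since the lists do not give it. By itself brain 1 had 5793 gaps of 20000 bp or more, covering 41.9% of the span. Brain 2 had 6525 such gaps, covering 87.6%, and fat body 2 had 7015, covering 82.0%. By comparison fat body 1 had 544, covering 3.42% of the span. The long gaps of the merged lists are therefore set mainly by fat body 1. When it was left out, 4032 long gaps remained, with 116 Mb. Without brain 1 there were 353, with 9.84 Mb, and without fat body 2 there were 223. Leaving out brain 2 left the number at 188, since no long gap was closed by this list alone. With 2 libraries per tissue, and with list length differing more within a tissue than between the tissues, a difference in gap number between brain and fat body cannot be told apart from list length.

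The typical gap was short. Over all gaps the median was 2216 bp, the 90th percentile 6838 bp and the 99th 12802 bp. Among the 188 long gaps the median was 25.6 kb, the middle of the distribution ran from 21.9 to 32.5 kb (quartiles), and the longest reached 118.6 kb. The limit cut through a continuous range of lengths. The shortest gap included had 20050 bp (BHWX01000007.1:9818662-9838711), and the longest one left out had 19996 bp (BHWX01000013.1:7626711-7646706).

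Moderately long gaps were rarer, and very long gaps far more frequent, than random placement of the same regions would give. As a reference, the regions of each sequence were taken as placed at random between its first and last region, and the exact distribution of the spacings gave the expected number of gaps. It gave 238 long gaps against 188 observed, a ratio of 0.789 (95% Poisson interval of the count 0.680 to 0.910, which covers counting only). With each peak replaced by a window of 200 bp around its summit the ratio was 0.916, and its interval, 0.791 to 1.05, included 1. From 20 to 25 kb there were 89 gaps where 182 were expected, a ratio of 0.489 (0.393 to 0.602). From 25 to 30 kb the numbers were nearly equal, 43 observed and 41.9 expected. From 30 to 40 kb 24 were observed and 13.3 expected. At 40 kb or more there were 32 where 1.24 were expected, a ratio of 25.8 (17.6 to 36.4). At 60 kb or more there were 8 gaps, and random placement gave 0.0158. The deficit began well below the limit, with 3604 gaps of at least 10 kb against 5168 expected.

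**Figure D1:**
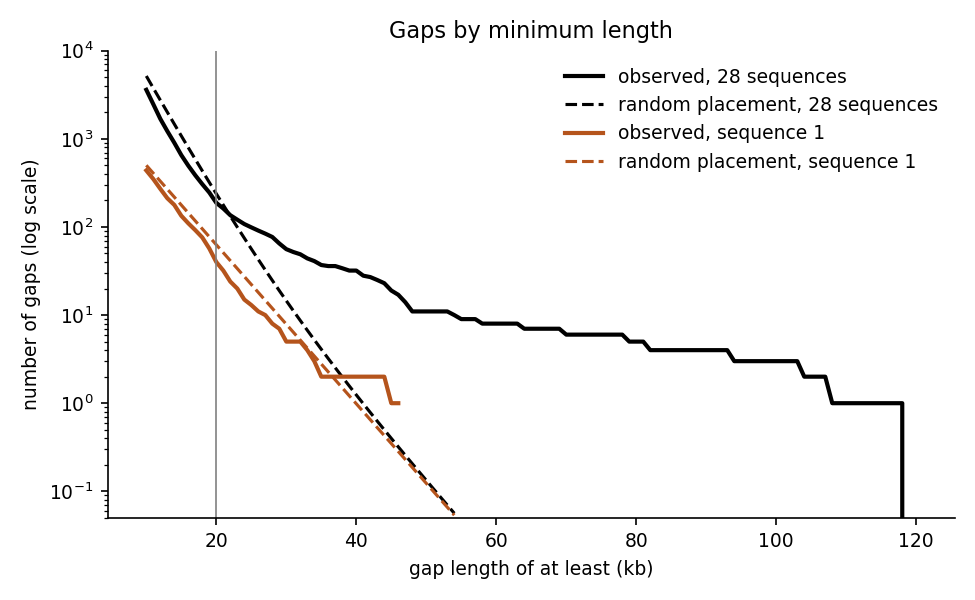
Number of gaps (vertical axis, log scale) of at least the length on the horizontal axis (kb), observed (solid) and under random placement of the same regions (dashed), for the 28 long sequences together (black) and for sequence 1 (orange); the grey line marks 20 kb. The black curves cross between 20 kb, where 188 gaps were observed and 238 expected, and 25 kb, where 99 were observed and 56.4 expected, whereas sequence 1 lies below its reference at 20 kb, 25 kb and 30 kb.

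Sequence 1 (BHWX01000001.1) held more long gaps than any other, and had the lowest density of open regions. It had 40 of the 188 gaps, or 21.3%, on 4.64% of the span. It carried 194 merged regions per Mb, where the other 27 sequences ranged from 278 to 328, and its median gap was 3720 bp. At that density random placement gave 62.8 long gaps, so that the observed number was 0.636 of the reference (0.455 to 0.867). Its long gaps were also short ones. Their median was 23.2 kb, the longest had 46.2 kb against an expected longest of 42.7 kb, and 5 reached 30 kb where 7.87 were expected.

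The other sequences held from 1 to 17 long gaps each. Sequence 17 had 17 where 6.96 were expected, sequence 6 had 14 where 10.4 were, and sequence 27 had 10 where 4.94 were. Sequence 28, which had the densest regions, had 6 where 2.13 were expected. At the other end sequences 3 and 9 had 1 each, with 4.03 and 5.36 expected. In gaps per Mb, sequence 1 was highest at 1.94 and sequence 9 lowest at 0.0597. Over the 28 sequences the number lay above the reference in 8 and below it in 20. The longest gap, in contrast, exceeded the expected longest in 27 of 28, with sequence 3 as the exception, and was over 2 times as long in 7. Over the 27 sequences without sequence 1, 51 gaps reached 30 kb and 6.68 were expected, a ratio of 7.64 (5.69 to 10.0).

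**Figure D2:**
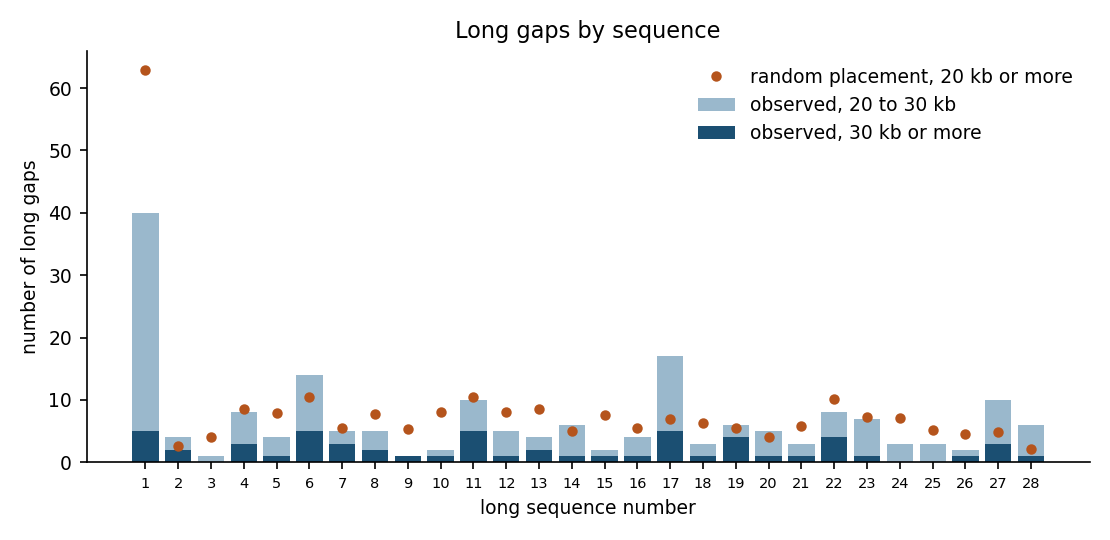
Number of long gaps on each of the 28 long sequences, split into 20 to 30 kb (light bars) and 30 kb or more (dark bars), with the number of 20 kb or more under random placement (orange points). Sequence 1 has 40 gaps under a reference of 62.8, while sequences 6, 17, 27 and 28 stand above theirs.

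Long gaps were more frequent toward the ends of the sequences than an even share by length would give. The first 10% of the span held 36 of them and the last 10% held 28. These end parts together held 64, or 34.0% (95% exact binomial interval 27.3 to 41.3) on 20% of the length. The 8 parts of the same length between them held from 11 to 20 each. Merged regions were spread almost evenly, with 20.1% of them in the end parts. Among the 56 gaps of 30 kb or more, 24 lay in the end parts, or 42.9% (29.7 to 56.8), and among the shorter ones 30.3% (22.6 to 38.9). Without sequence 1 the share was 35.1%. Without brain 1 it was 30.6%, and without fat body 1, among 4032 gaps, it was 19.7%. A long gap in an end part was present on 21 of the 28 sequences, a count for which no reference was computed. On 6 sequences most of the long gaps lay in the end parts. Within 500 kb of the first or last region lay 23 of the 188 gaps, or 12.2%, on 6.30% of the span.

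**Figure D3:**
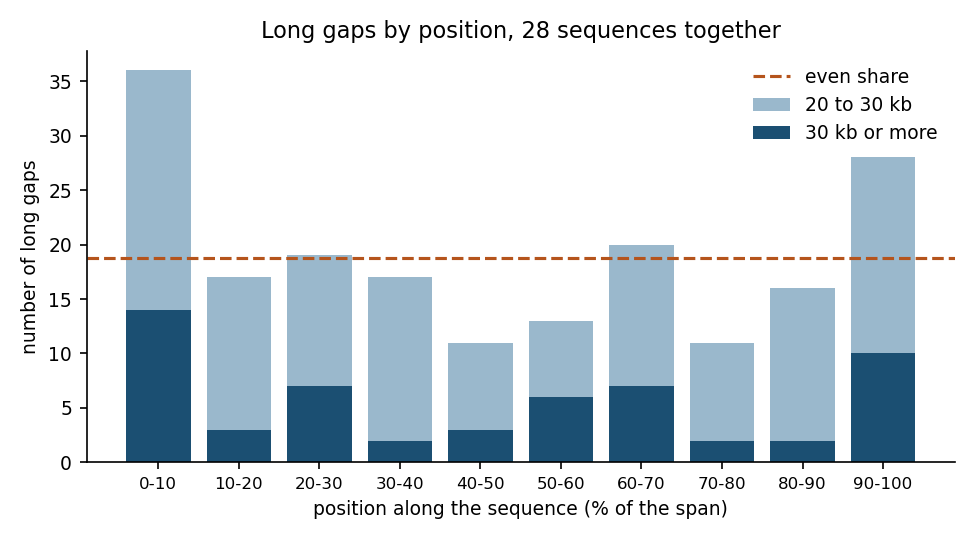
Number of long gaps in each 10% of the span between the first and last region, summed over the 28 sequences, for gaps of 20 to 30 kb (light) and 30 kb or more (dark); the dashed line is an even share of the 188 gaps. The first part has 36 and the last 28, and the 8 parts between have 11 to 20.

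Some long gaps lay next to each other. In 7 cases a lone merged region had a long gap on both sides, where a random order of the gaps of each sequence gave 0.616. Of the 160 neighbouring pairs of long gaps on a sequence, 33 lay within 100 kb of each other, and the median distance was 688 kb. In bins of 1 Mb, 124 of 458 bins held at least 1 long gap and 7 held 4 or more. For these distances and bins no number under random placement was computed. The fullest was BHWX01000017.1:3000001-4000000, with 7 long gaps that held 246 kb, and with 222 merged regions in the whole bin. By number BHWX01000001.1:1000001-2000000 and BHWX01000001.1:5000001-6000000 came next with 5 each, and by bases in long gaps BHWX01000006.1:15000001-16000000, where 4 held 239 kb. Around the long gaps as a whole the density of regions was close to that of their sequences. Within 100 kb on either side of a long gap it was 0.980 times that of the sequence (median of 188, quartiles 0.884 to 1.10), and the gap beyond the bordering region had a median of 1989 bp, against 2216 bp over all gaps. The upper quartile of the gaps beyond was longer, at 5694 bp against 4604 bp.

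The 10 longest gaps lay on 7 sequences, none of them sequence 1, and together held 14.4% of the bases in long gaps. The longest, BHWX01000006.1:15162883-15281488, had 118.6 kb and was bordered on both sides by regions that brain 2 and fat body 2 had and the other libraries lacked. The left region (738 bp) was 9.63-fold enriched in brain 2 and 12.4-fold in fat body 2, and the right region (677 bp) was 5.14-fold and 8.47-fold enriched. Fold enrichment is the authors' value for the summit over local background and belongs to 1 library. Both numbered 2 lists thus ended at nearly the same places, with an empty stretch of 118.6 kb in each.

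In the libraries numbered 1 the same place was emptier still. Brain 1 had no peak over 330 kb (BHWX01000006.1:15003931-15334028) and fat body 1 none over 279 kb (BHWX01000006.1:15022787-15301694). These were the longest empty stretches of their own lists on the long sequences. Fat body 1 had 240 summits per Mb over the whole span. Within its empty stretch brain 2 had 6 peaks, with a fold of 5.14 to 17.0, and fat body 2 had 7, with a fold of 8.47 to 21.0. Peaks of the longer lists were thus absent where peaks of the shorter lists were present.

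The second longest gap, BHWX01000019.1:8451248-8558389 with 107 kb, was set by fat body 1. A region of 257 bp found in fat body 1 alone lay on its left (fold 6.28) and one of 1110 bp found in brain 1 and fat body 1 on its right. Around it brain 1 was empty for 108 kb, fat body 2 for 219 kb and brain 2 for 362 kb. The third, BHWX01000027.1:885398-989189 with 104 kb, lay in the first 10% of its sequence. It ran from a region of 248 bp in fat body 1 alone to one of 676 bp in brain 2 and fat body 2 alone. All 4 libraries were empty there over similar lengths, with 105 kb in fat body 1, 116 kb in brain 1, 141 kb in brain 2 and 158 kb in fat body 2.

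The fourth longest gap was BHWX01000007.1:3205607-3299486 with 93.9 kb. A region of 509 bp in brain 1 and fat body 1 lay on its left and one of 114 bp in fat body 1 alone on its right. The fifth, BHWX01000011.1:11552490-11633588 with 81.1 kb, was the one of the 10 with a border region present in 3 lists. That region had 20.4-fold enrichment in brain 1 and 4.78-fold in brain 2, and its peaks in fat body 1 had 5.76-fold and 4.66-fold. The sixth, BHWX01000009.1:10960946-11039830 with 78.9 kb, was the only long gap of its sequence. The remaining ones were BHWX01000017.1:3717379-3786450 (69.1 kb), BHWX01000027.1:6639637-6703627 (64.0 kb), BHWX01000019.1:8207871-8264950 (57.1 kb) and BHWX01000011.1:1065978-1120832 (54.9 kb). Of the 20 borders of these 10 gaps, 15 held a fat body 1 peak, or 75% where 79.9% of all merged regions did, and 4 were regions of brain 2 and fat body 2 alone, or 20% where 3.5% of all were.

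Brain 1, brain 2 and fat body 2 were by themselves empty well beyond most long gaps, and fat body 1 often ended where the gap did. The stretch without a peak around a long gap had a median of 29.4 kb in fat body 1, 47.9 kb in brain 1, 76.5 kb in fat body 2 and 93.5 kb in brain 2. The order is that of the list lengths, with the longest list leaving the shortest stretch. Fat body 1 had a peak in both border regions of 104 gaps, or 55.3%, against 63.8% of all gaps of any length. Brain 1 had one in both of 14, fat body 2 of 13 and brain 2 of 8. In 17 gaps, or 9.04% against 4.02% of all, neither border region had a peak of fat body 1. Both borders were regions of fat body 1 alone in 54 gaps, or 28.7%, where 38.4% of all gaps had such regions on both sides. At least 1 border lacked both libraries numbered 1 in 55 gaps, or 29.3% against 13.3%.

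The regions that border long gaps were drawn less from fat body 1 and more from the libraries numbered 2 than merged regions in general. The 188 gaps had 369 different border regions. Of these, 274 held a fat body 1 peak, or 74.3% (95% exact binomial interval 69.5 to 78.6), where 79.9% of all merged regions did. Brain 1 was present in 27.6% (23.1 to 32.5), against 28% of all. Brain 2 was present in 56, or 15.2% (11.7 to 19.3), against 8.74%. Fat body 2 was present in 71, or 19.2% (15.3 to 23.6), against 11.1%. Border regions present in 1 list numbered 256, or 69.4% (64.4 to 74.0), against 77.9% of all, those in 2 lists 93, or 25.2% (20.9 to 30.0), against 17.2%, those in 3 lists 19, or 5.15%, against 4.04%, and 1 was in 4 lists, where 0.827% of all regions were. These intervals count regions, which are not replicates, and cover counting only.

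Among the combinations of lists given here, the highest ratio of border share to share of all regions belonged to regions of brain 2 and fat body 2 alone, and the largest difference in percentage points to those of fat body 1 alone. The former were 33 of the 369 border regions, or 8.94% (6.24 to 12.3), against 3.5% of all merged regions. At gaps of 30 kb or more they were 14.4% (8.47 to 22.4) of 111. Some of these regions lay close together, and the intervals treat them as independent. Examples are both borders of the longest gap on sequence 6, and BHWX01000017.1:3227510-3228029 with BHWX01000017.1:3256867-3257162. Regions of fat body 2 alone made up 6.78% (4.43 to 9.84), against 3.11%. Regions of fat body 1 alone made up 53.1% (47.9 to 58.3), against 62.1%, and those of brain 1 alone 9.21% (6.47 to 12.6), against 12.5%. Regions of brain 1 and fat body 1 alone made up 13.8% (10.5 to 17.8), against 11.4%. For these and for brain 1 alone, the share of all regions lay within the interval. A region of brain 2 alone was the border in 1 case (0.293% of all regions were of this kind). By tissue, 1 border region was shared by the brain libraries alone (0.502% of all regions were) and 6 by the fat body libraries alone (1.63%, against 1.55%). The libraries with a larger share at the borders were thus those numbered 2, 1 from each tissue. On sequence 1 the shares were close to those of all regions, since 8 of its 80 border regions held a brain 2 peak and 6 of the 80 a fat body 2 peak, against 8.42% and 9.67% of all regions there.

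**Figure D4:**
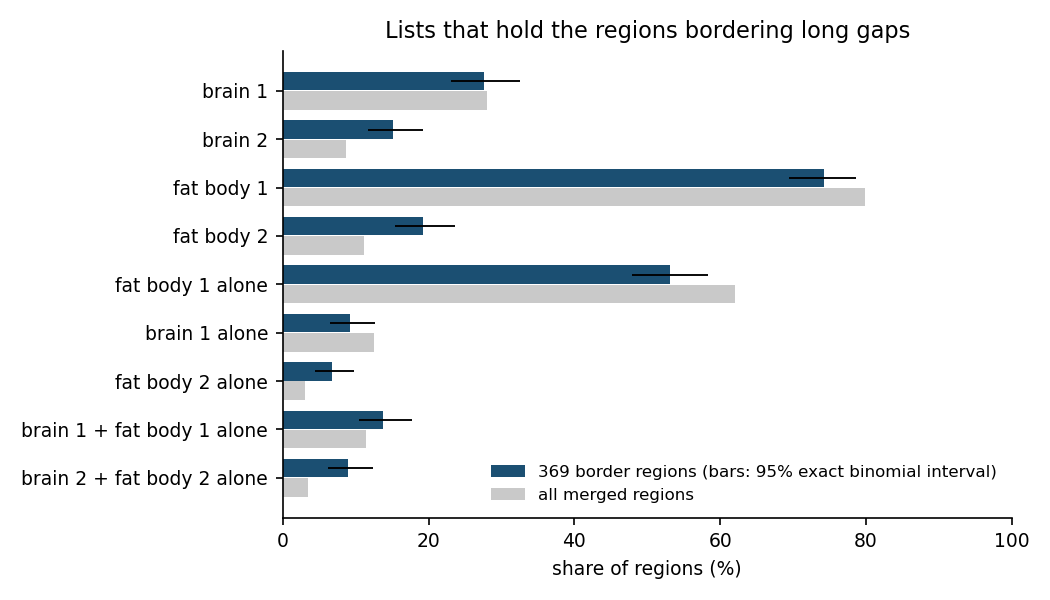
Share of the 369 regions bordering long gaps (dark bars, with 95% exact binomial intervals) and of all 129562 merged regions (grey bars) that hold a peak of each library, or of the named libraries alone (horizontal axis, %). Brain 2, fat body 2 and their shared regions have a larger share at the borders, and fat body 1 a smaller one.

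The lone regions between 2 long gaps are themselves among the 369 border regions, so their lists are no separate evidence. Of the 7, 5 were regions of brain 2 and fat body 2 alone, 1 was of fat body 2 alone and 1 of fat body 1 alone. Of all merged regions 3.5%, 3.11% and 62.1% were of these kinds, in the same order. The lone region with the longest empty stretch on both sides together, 148 kb, was BHWX01000006.1:15162145-15162882, described above as the left border of the longest gap. The second, BHWX01000006.1:15067742-15068415, lay 93.7 kb before it between gaps of 44.96 and 45.57 kb, with 9.63-fold enrichment in brain 2 and 17.6-fold in fat body 2. The third, BHWX01000022.1:1613757-1614247, lay between gaps of 45.67 and 27.98 kb, with 6.42-fold enrichment in brain 2 and 19.8-fold in fat body 2.

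The median border region was wider than the median merged region, but not in every set of lists. The median width was 288 bp (95% interval of the median 255 to 350), against 233 bp over all merged regions. Without fat body 1 the medians were 479 and 481 bp, and without brain 1 190.5 and 183 bp. Among regions of 1 list they differed by less than 1 bp, with 186.5 bp at borders and 187 bp over all, and those of fat body 1 alone had 159.5 and 160 bp. Border regions of 2 or more lists had a median of 608 bp (517 to 674), against 595 bp. Regions of 2 or more lists were 30.6% of the border regions and 22.1% of all. Within each list the peaks of border regions were close to the list's median width, with 169 against 166 bp in fat body 1, 487 against 425 bp in brain 1, 502 against 490 bp in brain 2 and 641 against 636 bp in fat body 2.

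The peaks beside long gaps stood on a low local background in all 4 libraries. For each peak the fold and the −log10 p of the deposited lists fix the reads piled up at the summit and the background that the peak caller assumed there, and the lowest background of a list is its genome-wide floor. The median background at border peaks was 6.09 reads in brain 1, against 9.64 over all its peaks. It was 4.83 against 8.37 in fat body 1, 1.30 against 4.12 in brain 2 and 1.09 against 4.16 in fat body 2. The floor was 1.38 reads in both libraries numbered 1, and 0.558 in brain 2 and 0.534 in fat body 2, so that the libraries numbered 2 had the lower backgrounds throughout. Within 5% of the floor lay 26.8% of the border peaks of brain 2 and 32.4% of those of fat body 2, against 0.749% and 0.488% of all peaks of these lists. In fat body 1 this was 12.2% against 0.499%, and in brain 1 it was 2.04% against 0.482%.

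The background fell with the length of the gap, and mainly above 20 kb. Peaks whose longer neighbouring gap had 10 to 20 kb had a median background of 5.60 times the floor in fat body 1, 6.31 in brain 1, 7.37 in fat body 2 and 6.68 in brain 2. Beside gaps of 20 to 30 kb these values were, in the same order, 3.77, 5.27, 2.89 and 2.90. Beside gaps of 30 kb or more they were 2.55, 2.37, 1.43 and 1.61. In the same order, the medians rest on 202, 72, 45 and 35 peaks at 20 to 30 kb. At 30 kb or more they rest on 86, 26, 23 and 21. The peak caller takes the background from reads around the peak, so beside a gap it includes part of the gap, and the window used is not given in the sources used here. Reads inside the gaps were not measured.

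**Figure D5:**
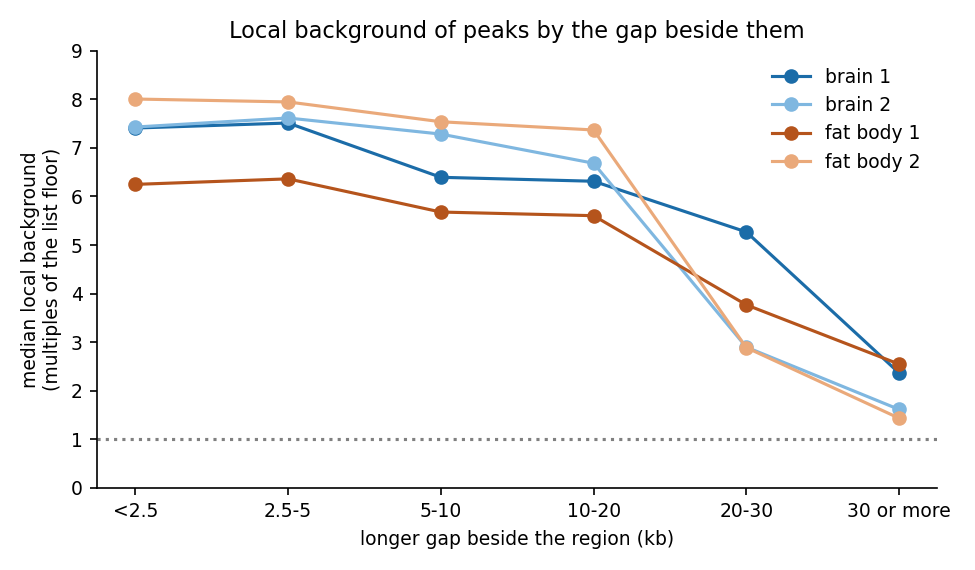
Median local background of peaks, in multiples of the lowest background of their list (vertical axis; dotted line at 1), by the longer of the gaps beside their merged region (horizontal axis, kb), for each library. The 4 lines lie between 5.60 and 7.37 at 10 to 20 kb and between 1.43 and 2.55 at 30 kb or more. At 30 kb or more the medians rest on 21 to 86 peaks per library.

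The median fold of these peaks lay somewhat above that of their lists, but in brain 1 this rested on sequence 1. It was 5.29 at borders against 4.00 over all peaks in fat body 1, 6.11 against 5.62 in brain 1, 6.30 against 5.38 in brain 2 and 9.12 against 8.54 in fat body 2. Without sequence 1 the values in brain 1 were 5.53 at borders and 5.59 over all peaks. On a lower background a peak needs a higher fold to reach the same p and be listed. Whether the differences in fold go beyond this was not tested. The piled-up reads at the summit were fewer in all lists, with a median of 30 against 35 in fat body 1, 42 against 57 in brain 1, 15.5 against 28 in brain 2 and 21.5 against 41 in fat body 2. In −log10 q, border peaks ranked at a median percentile of 58.1 in fat body 1, 42.4 in brain 1, 34.3 in fat body 2 and 33.3 in brain 2. They thus ranked above the middle of the list in fat body 1 and below it in the other 3. Without sequence 1 the percentile in brain 1 was 28.6.

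Each library was also measured in gaps it took no part in setting. It was left out in turn, long gaps were set by the other 3, and its summits in them were counted. Brain 1 had 363 summits in 353 such gaps, brain 2 had 1 in 188, fat body 2 had 71 in 223 and fat body 1 had 24061 in 4032. Against the whole span the density ratio was 0.861 in fat body 1, 0.452 in brain 1, 0.320 in fat body 2 and 0.00678 in brain 2. A ratio below 1 is largely built into this measure, because the span includes the regions that libraries share, which are left out of gaps set by the other lists. In brain 2 380 of 11321 regions were its own. The mean log2 ratio to the span, -2.55 ± 3.16 (SD, n = 4 libraries; p = 0.125, two-sided exact permutation test, the smallest p that 4 libraries allow), is therefore no sign that the gaps are empty beyond the choice.

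Shorter gaps of the same sets are a closer reference, since they too leave out the regions of the other lists. A shared peak whose summit lies beyond its region in the other lists is still counted. Short gaps have more borders for their length, so a ratio below 1 can be partly built in here as well. Against them the summit density in long gaps was 1.05 times (95% Poisson interval 1.04 to 1.06) in fat body 1, 0.821 times (0.641 to 1.04) in fat body 2, 0.760 times (0.684 to 0.842) in brain 1 and 0.119 times (0.00301 to 0.662) in brain 2. It was thus lower in 3 of 4 libraries, with 1 summit behind the value of brain 2. The mean log2 ratio was -0.92 ± 1.45 (SD, n = 4), with p = 0.25 in the two-sided exact permutation test, so that a lower density over the libraries was not shown. The 4 values share libraries and are not independent. The ratio of a single library changed with the choice and counting of peaks, beyond what some of these intervals cover. Counting whole peaks inside a gap, 2 of 4 libraries lay above 1, fat body 1 at 1.09 and fat body 2 at 1.02. Brain 1 was then at 0.889, above the interval for its summits, and brain 2 at 0.181. After every list was cut to its top 11572 peaks, fat body 1 fell to 0.794 and fat body 2 rose to 1.05. Brain 1 was then at 0.915 and brain 2 at 0.918. In gaps of 30 kb or more set by the full lists, the ratio was 1.00 in fat body 1. It was 0.557 in fat body 2 and 0.380 in brain 1, while brain 2 had no summit in 56 gaps.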

How the data were processed

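Peak lists of 4 ATAC-seq libraries were used, 2 of brain and 2 of fat body, grouped by title. Per the submitters' processing notes the tools were MACS2 2.1.0, deepTools 3.3.0, Bowtie2, Picard and Trim Galore; no settings and no build name are given in the sources used here. The authors listed peaks per library. The deposited lists give start and end, fold enrichment (a ratio to local background), −log10 p, −log10 q and a score, which was not used. The lists were cut differently: the deposited −log10 p started at 5.01 for fat body 1 and brain 1, 5.03 for brain 2 and 6.69 for fat body 2, whose −log10 q started at 5.04. The shortest peak had 94 bp in fat body 1, 203 bp in brain 1, 212 bp in fat body 2 and 230 bp in brain 2. Widths of merged regions therefore depend on which list they come from. Total read numbers are unknown.

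Peaks were merged at an overlap of 1 bp. Sequences 1 to 28 ended between 8.36 and 21.5 Mb by their last region. Expected numbers come from the exact distribution of uniform spacings per sequence, without simulation. Intervals are 95%: exact binomial (Clopper-Pearson), exact Poisson, or order statistics for medians, and cover counting only. Position is that of the gap midpoint. Pile-up and background were solved for peaks with a −log10 p under 250, with fold as (pile-up + 1) / (background + 1), p as the upper tail of a Poisson distribution, pile-up taken as an integer of 2 to 1000 and a relative tolerance of 2e-05, which was met by 100% of them.

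Named were the 10 longest gaps, those beside the limit, the 3 lone regions with the longest gaps, and the sequences with most and fewest gaps per Mb; other sequences and the stretch on sequence 6 were chosen after their values were seen. The members and lists were chosen with earlier results of these data known. The computation was tested on simulated data. Python 3.11.15, NumPy 2.4.6, pandas 2.3.3 and SciPy 1.17.1 were used.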

Additional observations from a re-analysis of the deposited data

Results flagged for a closer look

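The unplaced sequences, which lie outside the comparisons above, also held long gaps. On 180 unplaced sequences with at least 1 merged region there were 567 gaps, of which 19 had 20000 bp or more, or 3.35% (95% exact binomial interval 2.03 to 5.18), against 0.145% on the long sequences. The longest had 57.9 kb, and the 19 together held 630 kb. They stand here because the report's comparisons do not use these sequences. The 180 sequences held 747 merged regions, and no number of long gaps under random placement was computed for them. Whether 3.35% is high for their density of regions was therefore not tested.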

How the results depend on the processing

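The limits are those of peak lists. Reads outside peaks are not in them, so an empty stretch in a short list may be lack of depth, and the 188 gaps rest on fat body 1, the longest list. Leaving out 1 library moved the number of long gaps between 188 and 4032, their bases between 5.76 and 116 Mb, the ratio to random placement between 0.719 and 0.870, the median length between 23.8 and 25.6 kb, the median border width between 191 and 479 bp, the share in the end parts between 19.7% and 34.0%, and the border share with a fat body 1 peak between 74.3% and 86.6%. By construction, fewer peaks close fewer gaps. With the 11572 best peaks of each list there were 6888 long gaps with 258 Mb and a ratio of 0.941, a median length of 31.0 kb, a border width of 595 bp, an end share of 20.4% and a fat body 1 share of 31.2%. With regions of at least 2 lists these were 6987, 248 Mb, 0.947, 30.0 kb, 599 bp, 20.2% and 80.0%. With the lists of number 2 there were 7460 gaps with 336 Mb, 0.971, 36.2 kb, 577 bp and 20.0%. With the brain lists there were 4887 gaps, 146 Mb, 452 bp and an end share of 19.7%. With the fat body lists there were 362, 10.1 Mb, 23.9 kb, 189 bp and a fat body 1 share of 87.5%. With the lists of number 1 there were 8.23 Mb, 217 bp and 87.4%. A limit of 15000 bp gave 654 gaps, 13.6 Mb, 0.605, 17.5 kb, 248 bp and 24.8%. A limit of 30000 bp gave 56 gaps, 2.61 Mb, 41.4 kb and 42.9%, and turned the ratio to random placement from below 1 to 3.85. Summit windows gave a ratio of 0.916 (interval 0.791 to 1.05) and, by construction, a width of 200 bp. Without sequence 1, a setting chosen after seeing the data, the gaps held 4.76 Mb. For the other moves the cause was not tested. Where lists or peaks were left out or regions needed 2 lists, the fat body 1 share of all merged regions was not computed. The median width of all regions is known there only with 1 library left out and for regions of at least 2 lists (595 bp). Elsewhere the border values do not show whether the difference from all regions held. A −log10 q of at least 5 moved no result past these margins, and neither did a rate of placement per 1 Mb bin (0.732). The mean log2 ratio of the left-out library to the span, which is below 0 largely by construction, ran from -2.59 to -0.369 over 7 alternatives, the last with a replicate block in which gaps were set by the libraries of the other number. Against shorter gaps it ran from -0.643 to -0.0332 (the replicate block) with p from 0.25 to 0.625 by the exact permutation test, and 1 or 2 of 4 libraries lay above 1 in each. Brain 2 had no summit in the gaps with a −log10 q of at least 5 and at 30000 bp, and 3 counts were used there. Without fat body 1, and with the brain or number 2 lists, the fat body 1 share has no value. No other paired analysis was possible because the results on gaps come from no test across libraries.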

Other observations

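The stretch before the first region of a sequence is no gap between regions and was not counted. It reached 20 kb on 8 of the 28 long sequences, with the longest, 37.4 kb, on sequence 1. The length beyond the last region cannot be given, because the lists hold no sequence lengths.

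Gaps set by the libraries of 1 number were measured in those of the other. In the 266 long gaps of brain 1 and fat body 1, brain 2 had 119 summits, 0.916 times (0.759 to 1.10) its density in shorter gaps, and fat body 2 had 196, 0.908 times (0.785 to 1.04). In the 7460 long gaps of brain 2 and fat body 2, brain 1 had 24895 summits, 1.05 times (1.04 to 1.07) its density in shorter gaps, and fat body 1 had 77498, 1.04 times (1.03 to 1.05). The mean log2 ratio of the 4 libraries was -0.0332.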
